A study of Mus musculus with 22 samples.

Results

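The 8 genes described here were Acss1, Acss2, Acly, Acads, Acox3, Gcdh, Echs1 and Cdyl, which code for enzymes that make acetyl-CoA or that make or remove crotonyl-CoA. They were found by their symbols in the RNA table of 55385 genes, and all 8 were among the 16237 genes with enough counts to be tested. Peaks were assigned to a gene when they lay within 2000 bp of its annotated span on GRCm38. The tissue was the telencephalon of ICR mouse embryos, with no mutant allele or treatment in the labels. It was taken at embryonic day 16.5 (E16.5) and at embryonic day 13.5 (E13.5), the earlier stage against which E16.5 was set. RNA-seq of polyA RNA and native ChIP-seq, a chromatin immunoprecipitation without crosslinking, had 2 libraries at each stage, stated to be biological replicates. The ChIP-seq targets were acetylation and crotonylation of histone H3 lysine 9 (H3K9ac, H3K9cr) and lactylation of lysine 18 (H3K18la). ATAC-seq, which maps open chromatin, had 2 libraries at E13.5 only. The number of embryos per library was not stated in the labels.

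Acetyl-CoA is the donor for histone acetylation and crotonyl-CoA the donor for histone crotonylation, and both are small metabolites made from fuels. In animal cells acetyl-CoA for the nucleus and cytosol comes mainly from citrate, split by ATP-citrate lyase, and from free acetate, joined to CoA by an acetyl-CoA synthetase. Crotonyl-CoA arises as an intermediate of short-chain fatty acid oxidation and of lysine and tryptophan breakdown, and is removed by hydratases.

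RNA of 5 of the 8 genes was lower at E16.5 than at E13.5 (29.2% of all genes tested were lower, and 57.6% were called in either direction), and of the 3 others no difference was called. The 5 were Acss1, Acads, Cdyl, Acly and Echs1, and with DESeq2, which did not call Echs1, they were 4. H3K9ac and H3K9cr peaks stood at a start site of every one of the 8 genes in every library of both stages, as they did in 90.9% (H3K9ac) and 91.2% (H3K9cr) of the protein-coding genes tested in RNA. H3K18la peaks were lost at E16.5 at the start site of 1 gene, Cdyl (1.82% of protein-coding genes and 3.29% of those lower in RNA), and of 0 genes under a stricter q-value limit of 1e-05.

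RNA library totals were 17533164 and 18024657 counts at E16.5, against 17059544 and 18485855 at E13.5. Levels below are CPM, that is, each gene's counts relative to the library total, adjusted with edgeR's trimmed mean of M values (TMM). They are not corrected for transcript length and so are not compared between genes. The telencephalon markers fixed for this check were all tested and 9 of 10 were lower, and their summed level was 2010 to 2060 CPM at E16.5, against 3040 to 3220 CPM at E13.5. Of 7 markers of midbrain, hindbrain and spinal cord 6 had too few counts to be tested, and Hoxa5, Hoxb3 and Hoxb4 had 0 counts in all 4 libraries. The marker tested, Gbx2, had 33 and 37 counts at E16.5, against 61 and 186 at E13.5, where replicate 2 stood apart, and was lower with a log2 change of -1.85 (edgeR adjusted p = 0.00897). Summed marker levels of other cell types were also set side by side, and those of meninges and choroid plexus overlapped between the stages. The summed level of 5 genes of dividing cells was 469 to 509 CPM at E16.5, against 1380 to 1390 CPM at E13.5, with 5 of 5 lower. The summed level of 5 astrocyte-lineage genes was 443 to 492 CPM at E16.5, against 209 to 227 CPM at E13.5, with 5 of 5 higher. For 5 endothelial genes it was 302 to 318 CPM at E16.5, against 85.4 to 95.9 CPM at E13.5, and 5 of 5 were higher. For 5 microglial genes it was 94.3 CPM in both libraries at E16.5, against 43.4 to 44.1 CPM at E13.5, and 5 of 5 were higher. Erythroid genes, of which 3 of 5 were higher, summed to 2220 to 3030 CPM at E16.5, against 1260 to 1370 CPM at E13.5. Meningeal genes, of which 1 of 4 tested was higher, summed to 22.0 to 25.3 CPM at E16.5, against 10.6 to 26.0 CPM at E13.5. Choroid plexus genes, of which 1 of 3 tested was lower, summed to 5.81 to 25.7 CPM at E16.5, against 15 to 33.6 CPM at E13.5. The part of these markers in the changes given below was not tested, and in bulk tissue fewer cells of a type and less RNA per cell cannot be told apart.

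Acss1 encodes the mitochondrial acetyl-CoA synthetase and had the largest RNA difference among the 8 genes. The gene (ENSMUSG00000027452.11) spans chr2:150618111-150668240 on the minus strand. It had 44.9 and 39.1 CPM at E16.5, against 80.8 and 94.2 CPM at E13.5. Both libraries at E16.5 were below both at E13.5. The means were 42.0 ± 4.10 CPM at E16.5 and 87.5 ± 9.44 CPM at E13.5 (SD, n = 2 each). The log2 change was -1.06 (SE 0.09, 95% interval -1.27 to -0.84, edgeR quasi-likelihood test, Benjamini-Hochberg adjusted p = 3.71e-05 over all genes), and the level at E16.5 was 0.48 times that at E13.5.

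Acss2 encodes the acetyl-CoA synthetase of the cytosol and nucleus, which is also able to make crotonyl-CoA from crotonate. The gene (ENSMUSG00000027605.18) spans chr2:155518043-155562743 on the plus strand. It had 25.5 and 22.3 CPM at E16.5, against 21.8 and 23.0 CPM at E13.5. The stages overlapped. The log2 change was 0.09 (SE 0.10, 95% interval -0.15 to 0.34, edgeR adjusted p = 0.475), an interval that excludes a change as large as that of Acss1. Without replicate 1 of E16.5 the value was -0.02 (adjusted p = 0.878), so its sign rests on that library.

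Of these 2 synthetase genes 1 fell and the other had no called change, and the 250 bases before their annotated start sites are shown to set them side by side, as given by RefSeq for GRCm38.p6. The sequences run 5′ to 3′ along the gene. Capitals mark GC boxes (GGGCGG, or CCGCCC where the match is on the other strand) and, in Acss2, 1 CCAAT box read on the other strand (ATTGG). The Acss1 sequence is chr2:150668241-150668490, minus strand, and the Acss2 sequence is chr2:155517793-155518042, plus strand.
Acss1: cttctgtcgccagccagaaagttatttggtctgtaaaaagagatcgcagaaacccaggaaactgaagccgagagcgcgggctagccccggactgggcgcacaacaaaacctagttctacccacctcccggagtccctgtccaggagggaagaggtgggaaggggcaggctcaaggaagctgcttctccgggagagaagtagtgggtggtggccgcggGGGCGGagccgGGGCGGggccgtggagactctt
Acss2: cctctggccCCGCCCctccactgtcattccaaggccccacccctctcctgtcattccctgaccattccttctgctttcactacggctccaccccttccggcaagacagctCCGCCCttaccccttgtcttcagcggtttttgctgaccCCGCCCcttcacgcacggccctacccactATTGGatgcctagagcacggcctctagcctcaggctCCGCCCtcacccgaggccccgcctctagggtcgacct
The Acss1 sequence held 2 GC boxes, both between positions -33 and -17 from the start, with 61.6% G and C and 15 CG pairs. The Acss2 sequence held 4 GC boxes spread from position -241 to -32, with 64.0% G and C and 13 CG pairs. Over the 32851 RefSeq windows of the same length the medians were 52.4% G and C and 6 CG pairs.

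Acly encodes ATP-citrate lyase, which splits citrate that has left the mitochondria into acetyl-CoA and oxaloacetate. The gene (ENSMUSG00000020917.17) spans chr11:100476352-100528000 on the minus strand. It had 349 and 329 CPM at E16.5, against 546 and 533 CPM at E13.5. Both libraries at E16.5 were below both at E13.5, and the gap between the stages exceeded the spread within either. The means were 339 ± 14.1 CPM at E16.5 and 540 ± 9.13 CPM at E13.5 (SD, n = 2 each). The log2 change was -0.67 (SE 0.04, 95% interval -0.77 to -0.57, edgeR adjusted p = 8.61e-06), or 0.628 times the level at E13.5.

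Of the genes grouped here as makers of crotonyl-CoA, Acads fell and Gcdh and Acox3 had no called change. Acads encodes the short-chain acyl-CoA dehydrogenase of mitochondria, which turns butyryl-CoA into crotonyl-CoA (ENSMUSG00000029545.13, chr5:115110299-115119346, minus strand). It had 8.72 and 8.99 CPM at E16.5, against 18 and 15.4 CPM at E13.5. The stages did not overlap. Its log2 change was -0.92 (SE 0.13, 95% interval -1.23 to -0.61, edgeR adjusted p = 0.000594), or 0.53 times the level at E13.5. Gcdh encodes glutaryl-CoA dehydrogenase, which makes crotonyl-CoA in the breakdown of lysine and tryptophan (ENSMUSG00000003809.14, chr8:84886387-84893921, minus strand). It had 19.8 and 17.4 CPM at E16.5, against 20.7 and 22.4 CPM at E13.5. The stages did not overlap, but the log2 change of -0.21 (SE 0.11, 95% interval -0.47 to 0.04) did not pass the test, with an edgeR adjusted p = 0.134. Without replicate 1 of E16.5 it was -0.32, with an edgeR adjusted p = 0.0492, so the call rests on that library. Acox3 encodes a peroxisomal acyl-CoA oxidase of branched-chain fatty acids (ENSMUSG00000029098.17, chr5:35582981-35614208, plus strand). It had 42.4 and 45.3 CPM at E16.5, against 42.8 and 40.9 CPM at E13.5. The stages overlapped, and the log2 change was 0.07 (SE 0.07, 95% interval -0.09 to 0.23, edgeR adjusted p = 0.443).

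Both genes whose products remove crotonyl-CoA fell. Echs1 encodes the short-chain enoyl-CoA hydratase of mitochondria, which adds water to crotonyl-CoA (ENSMUSG00000025465.13, chr7:140105710-140116421, minus strand). It had 47.5 and 46.9 CPM at E16.5, against 56.5 and 56.0 CPM at E13.5. The replicates were close together, and the stages did not overlap. The log2 change was small, -0.25 (SE 0.06, 95% interval -0.39 to -0.12, edgeR adjusted p = 0.00657), or 0.839 times the level at E13.5. With DESeq2 it had an adjusted p = 0.0516 and was not called, and in the authors' deposited table the adjusted p was 0.054. Cdyl encodes chromodomain Y-like protein, a nuclear corepressor with a crotonase fold that is reported to hydrate crotonyl-CoA (ENSMUSG00000059288.14, chr13:35659818-35874064, plus strand). It had 6.54 and 7.08 CPM at E16.5, against 12.3 and 12.8 CPM at E13.5. The means were 6.81 ± 0.387 CPM at E16.5 and 12.5 ± 0.383 CPM at E13.5 (SD, n = 2 each). Both libraries at E16.5 were below both at E13.5. The log2 change was -0.88 (SE 0.14, 95% interval -1.21 to -0.55, edgeR adjusted p = 0.00107), or 0.544 times the level at E13.5.

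**Figure D1:**
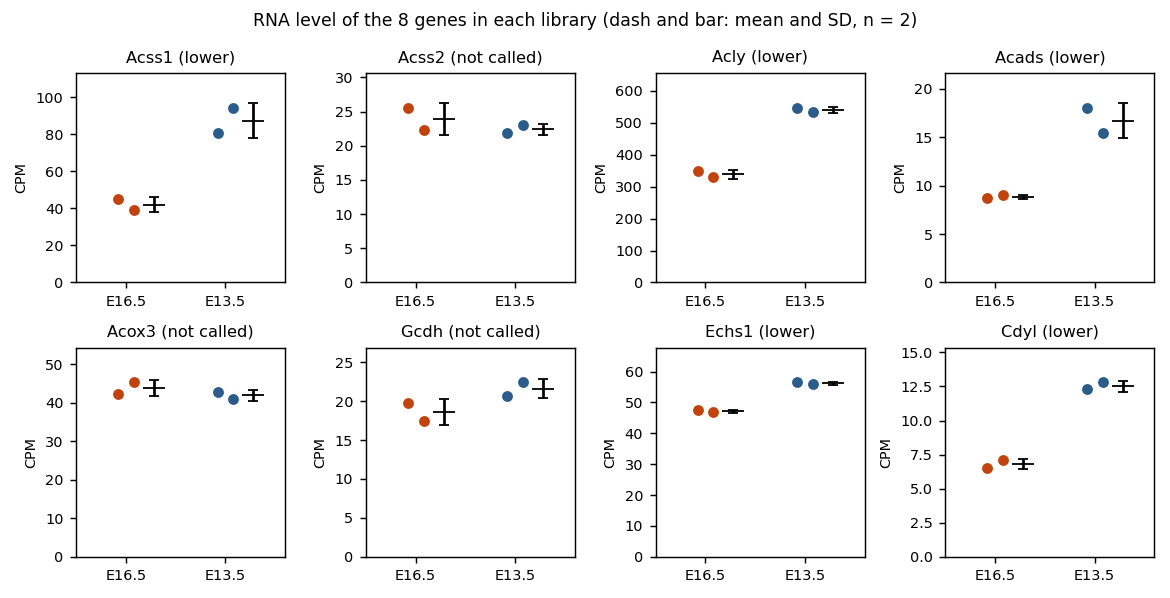
RNA level of each of the 8 genes in CPM (vertical axes, each starting at 0) in the 2 libraries at E16.5 and the 2 at E13.5, with points for libraries, and a dash with an error bar for mean and SD. The points of Acss1, Acly, Acads, Echs1 and Cdyl at E16.5 lie below those at E13.5, as do those of Gcdh, while Acss2 and Acox3 overlap between the stages.

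As a set, 5 of the 8 genes were lower at E16.5 and 0 were higher, with a median log2 change of -0.46. Over all 16237 genes tested, 29.2% were lower and 28.4% were higher by the same rule, 57.6% were called in either direction, and the median log2 change was 0.01. None of the 8 was higher at an unadjusted p under 0.05 or with DESeq2 either. Without replicate 1 of E16.5 the number lower was 6, and with DESeq2 it was 4. In the authors' deposited table the log2 fold changes of the 8 genes had the same signs, from -1.07 for Acss1 to 0.08 for Acss2.

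Some of these counts can hold reads of a neighbouring gene, since the labels do not say whether counting used strand. Gcdh overlaps Syce2, which codes for a protein of the synaptonemal complex, by 1060 bp on opposite strands at their 3′ ends. Syce2 had 7.17 ± 0.204 CPM at E16.5 and 15.3 ± 0.804 CPM at E13.5 (SD, n = 2 each), a log2 change of -1.10 (edgeR adjusted p = 0.000213). Echs1 overlaps Paox by 687 bp on opposite strands, and Paox changed by -0.30 on the log2 scale (edgeR adjusted p = 0.234). The other overlapping annotations with a strand had few reads. E130215H24Rik, which overlaps Acss1 by 747 bp, had 0 and 9 counts at E16.5, against 11 and 5 at E13.5, and 4931431C16Rik, which overlaps Acox3 by 5783 bp, had 5 and 11 counts at E16.5, against 3 and 6 at E13.5. Acss2os, an antisense RNA within Acss2, had 0 counts in all 4 libraries. The long noncoding RNA Gm52532, for which no strand is given, overlaps Acss1 by 32439 bp. No RNA counts were listed under its symbol, and its part in the Acss1 counts was not tested.

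The wider pathway was described with 6 lists of other genes. Over all genes tested, 29.2% were lower and 28.4% were higher, and the counts of each list are to be read beside these shares. Among 19 genes of acetyl-CoA supply and transport, 9 were lower (47.4%) and 3 higher (15.8%) at E16.5, and the median log2 change was -0.19. Of the 9 Crat was nearest to the call threshold (log2 change -0.19, edgeR adjusted p = 0.0461). Lower were the citrate synthase gene Cs (186 ± 5.26 CPM at E16.5 and 273 ± 10.7 CPM at E13.5, SD, n = 2 each, log2 change -0.56, edgeR adjusted p = 5.36e-05) and Acat2, a cytosolic acetoacetyl-CoA thiolase that uses acetyl-CoA to begin sterol synthesis (130 ± 7.59 CPM at E16.5 and 197 ± 0.105 CPM at E13.5, log2 change -0.61, edgeR adjusted p = 5.66e-05). The 5 genes of the pyruvate dehydrogenase complex in the list, singled out after their values were seen, were each called lower: the log2 change was -0.39 for Dlat, -0.38 for Dld, -0.35 for Pdhx, -0.34 for Pdha1 and -0.23 for Pdhb, with edgeR adjusted p between 0.000778 and 0.0083. Acss3, a further mitochondrial acyl-CoA synthetase, had 5 and 3 counts at E16.5, against 13 and 18 at E13.5, too few to size its fall. Higher were the acyl-CoA thioesterase genes Acot9 (log2 change 0.66, edgeR adjusted p = 0.00685) and Acot7 (0.41, adjusted p = 0.000481), whose products split acyl-CoA into acid and CoA. Slc25a1, the mitochondrial citrate carrier that feeds ATP-citrate lyase, had 57.1 ± 3.43 CPM at E16.5 and 53.6 ± 3.59 CPM at E13.5, with overlapping stages.

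Among 30 genes of fatty acid oxidation 10 were lower and 4 higher, with a median log2 change of -0.12. The share lower, 33.3%, was near the 29.2% of all genes tested, and the share higher was 13.3%, against 28.4%. Those with the largest falls were Eci1, an enoyl-CoA isomerase (5.10 ± 0.339 CPM at E16.5 and 9.93 ± 0.539 CPM at E13.5, SD, n = 2 each, log2 change -0.96, edgeR adjusted p = 0.00148), and Hadh, the short-chain hydroxyacyl-CoA dehydrogenase that acts after Echs1 (12.1 ± 0.408 CPM at E16.5 and 21.1 ± 1.48 CPM at E13.5, log2 change -0.81, edgeR adjusted p = 0.000465). Etfa and Etfb, the subunits of the flavoprotein that takes electrons from Acads and Gcdh, were also lower, by names chosen after their values were seen: the log2 change was -0.66 for Etfa (edgeR adjusted p = 0.000806) and -0.53 for Etfb (0.00302). Cpt1c, the neuronal form of carnitine palmitoyltransferase, rose (101 ± 0.406 CPM at E16.5 and 57.2 ± 1.18 CPM at E13.5, log2 change 0.81, edgeR adjusted p = 7.52e-06), as did Acadsb, a dehydrogenase of short branched chains (log2 change 0.35, edgeR adjusted p = 0.00182). The number higher was 2 without replicate 1 of E16.5 and 2 without replicate 2 of E13.5.

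Of 16 genes of lysine and tryptophan breakdown, the route to Gcdh, 8 had enough counts to be tested. Of these 4 were lower (50%, against 29.2% of all genes tested) and 1 higher (12.5%, against 28.4%), with a median log2 change of -0.28. Dhtkd1, whose product makes the glutaryl-CoA that Gcdh uses, was the gene that rose, with 31.5 ± 0.265 CPM at E16.5 and 21.2 ± 0.0206 CPM at E13.5 (SD, n = 2 each, log2 change 0.57, edgeR adjusted p = 0.000682). Ogdh, the related 2-oxoglutarate dehydrogenase, fell by 0.36 on the log2 scale (edgeR adjusted p = 0.000872) and Phykpl by 0.34 (edgeR adjusted p = 0.0178). Without replicate 2 of E13.5 the number lower was 2, and Phykpl was not called (adjusted p = 0.0979). Tdo2, the tryptophan dioxygenase that opens the kynurenine route, had 11 and 5 counts at E16.5, against 2 and 4 at E13.5.

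Of 7 other genes with a crotonase fold, 6 were tested, 2 were lower and 1 was higher, with a median log2 change of 0. The share lower was 33.3%, near the 29.2% of all genes tested, and the share higher was 16.7%, against 28.4%. Echdc1 fell by 0.61 on the log2 scale (edgeR adjusted p = 0.002) and Hibch by 0.57 (edgeR adjusted p = 0.0143), while Echdc2 rose by 0.67 (edgeR adjusted p = 0.0118). Without replicate 2 of E13.5 the counts were 1 lower and 0 higher, with adjusted p = 0.079 for Hibch and 0.0597 for Echdc2, and without replicate 1 of E16.5 none was higher. Cdyl2, the paralog of Cdyl, changed by -0.06 (edgeR adjusted p = 0.842). Of 11 users of cytosolic acetyl-CoA 10 were tested, 3 were higher and 0 lower, with a median log2 change of 0.14. The share higher was 30%, near the 28.4% of all genes tested. The fatty acid elongase gene Elovl5 had 79.1 ± 5.02 CPM at E16.5 and 64.7 ± 3.78 CPM at E13.5 (SD, n = 2 each, log2 change 0.29, edgeR adjusted p = 0.00694). Fasn, the fatty acid synthase gene, had 678 ± 17.6 CPM at E16.5 and 669 ± 13.6 CPM at E13.5. No user was lower at an unadjusted p under 0.05, but 2 were lower without replicate 1 of E16.5, where Elovl5 was not called (adjusted p = 0.0596).

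Most of the 11 other acyl-CoA synthetases join CoA to longer fatty acids or to acetoacetate. Of the 11 genes 7 were higher (63.6%, against 28.4% of all genes tested) and 1 was lower (9.09%, against 29.2%), with a median log2 change of 0.42. Acsl1 had 17.8 ± 0.857 CPM at E16.5 and 8.33 ± 0.869 CPM at E13.5 (SD, n = 2 each), a log2 change of 1.09 (edgeR adjusted p = 0.000212). Acsl6, a synthetase known from brain, had 112 ± 4.11 CPM at E16.5 and 68.0 ± 3.87 CPM at E13.5 (log2 change 0.72, edgeR adjusted p = 2.79e-05). Acsf2 was the gene that fell, by 0.95 on the log2 scale (edgeR adjusted p = 0.00318). Without replicate 1 of E16.5 the number higher was 4.

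**Figure D2:**
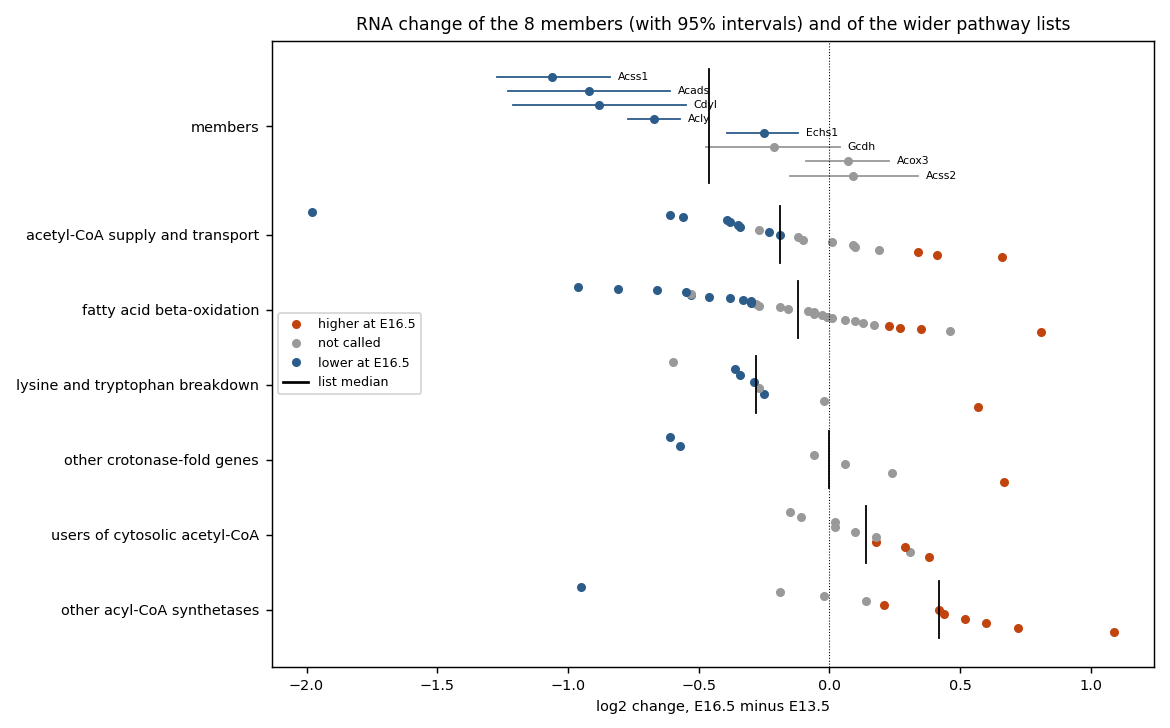
Log2 RNA change, E16.5 minus E13.5 (horizontal axis), of the 8 genes with 95% intervals (top row) and of the genes of the 6 wider lists (a point per gene, coloured by call), with a black bar at each list's median. The median of the 8 genes is -0.46, and the list medians run from -0.28 for lysine and tryptophan breakdown to 0.42 for other acyl-CoA synthetases.

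Peak lists differed in size between the stages, which bears on what can be called present. H3K9ac lists held 49652 and 50668 peaks at E16.5, against 37319 and 34532 at E13.5, and H3K9cr lists 41074 and 42304 at E16.5, against 32567 and 28968 at E13.5. H3K18la lists held 62073 and 76037 peaks at E16.5, against 73369 and 69157 at E13.5, and the first of these stood apart by its short peaks, with a median of 486 bp against 634 to 650 bp in the other 3. The fold enrichments given below are those the authors' caller assigned at a peak's summit. They are used to place a peak within its own list, and not to compare stages. The place is the percentage of that list's peaks with an equal or lower value, the peak itself included. For short, a peak is said below to stand above that percentage.

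H3K9ac and H3K9cr peaks lay within 2000 bp of a start site of 8 of 8 genes in all 4 libraries of each mark. Among 17492 protein-coding genes with a start site in RefSeq, the share marked in all libraries was 61.0% for H3K9ac and 61.4% for H3K9cr. Among the 11023 of these tested in RNA it was 90.9% for H3K9ac and 91.2% for H3K9cr, so the count of 8 is close to that of expressed genes in general. No gene of the 8 gained or lost either mark at its start sites between the stages. For all protein-coding genes the share gained at E16.5 was 1.36% for H3K9ac and 0.892% for H3K9cr, and the share lost was 0.114% for H3K9ac and 0.103% for H3K9cr. Over whole gene spans, too, 8 of 8 were marked in all libraries (65.4% for H3K9ac and 65.7% for H3K9cr), with none gained (1.65% and 1.18%) and none lost (0.126% and 0.0629%). Among the 3650 protein-coding genes lower in RNA, 97.7% had H3K9ac and 97.7% had H3K9cr at a start site in all libraries. The 5 genes that fell thus kept the called peaks of these marks, as did nearly all genes that fell.

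The summits of the strongest start-site peak of each gene and library lay mostly within the gene. For H3K9ac 31 of 32 summits were downstream of the start, at a median of 245.5 bp, and for H3K9cr 31 of 32, at a median of 240 bp. The ATAC-seq summits lay at the start itself, at a median of -27 bp, between -103 and 84 bp in 13 peaks. The ChIP-seq peaks were the longer, with a median of 1479.5 bp for H3K9ac, 1494 bp for H3K9cr, 808 bp for H3K18la and 414 bp for ATAC-seq. H3K18la summits were more spread, from -478 to 864 bp, with a median of 124 bp.

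Acly had the widest H3K9ac peaks of the 8 genes at a start site, 3221 to 3619 bp long. Their fold enrichment was 66.7 and 57.6 at E16.5, against 84.3 and 50.7 at E13.5, which placed them above 89.4% to 97.6% of the peaks of their lists. Its H3K9cr peaks had 66.8 and 66.8 at E16.5, against 119 and 63.4 at E13.5. The H3K9cr peaks stood above 85.1% to 97.3% of the peaks of their lists, so that Acly was among the strongest for both marks. Echs1 was likewise high, at 45.3 and 70.4 for H3K9ac at E16.5, against 56.0 and 59.1 at E13.5, above 86.6% to 96.2% of the peaks of their lists. Gcdh stood above 83.0% to 92.9% and Acss1 above 81.0% to 86.1% for H3K9ac. The Gcdh H3K9ac and H3K9cr peaks also covered the start of the long noncoding RNA Gm39213, 87 bp away on the other strand. Those of Acss1 likewise covered the start of E130215H24Rik, and the mark of such a pair cannot be told apart by gene. The Echs1 H3K9ac peaks covered the first base of the span of Paox (chr7:140115735), on the other strand. The nearest Paox start site in the promoter annotation lay 9236 bp from that of Echs1, and the part of Paox in these peaks was not tested. Cdyl was lowest for both marks, above 62.8% to 67.9% of peaks for H3K9ac and 50.5% to 61.6% for H3K9cr. Acss2, Acads and Acox3 stood between, above 68.0% to 79.5% of the H3K9ac peaks of their lists.

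H3K18la was at a start site of 5 genes in all 4 libraries, namely Acss1, Acss2, Acly, Acox3 and Echs1, where 47.9% of protein-coding genes, and 72.1% of those tested in RNA, were so marked. Over whole spans it was 6, with Cdyl, against 56.4% of protein-coding genes. Acads had a peak in replicate 2 of each stage and in neither replicate 1. Gcdh had peaks in both libraries at E16.5, with folds of 5.62 and 4.28, against 1 peak at E13.5, with a fold of 7.72 in replicate 2. Without replicate 2 of E13.5 it would count as gained. None of the 8 gained H3K18la at a start site, against 0.663% of protein-coding genes, and 1, Cdyl, lost it, against 1.82% of all protein-coding genes, 2.41% of those tested in RNA and 3.29% of those lower in RNA. Over spans none gained it (0.675%) and none lost it (1.68%).

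ATAC-seq peaks at E13.5 were at a start site in both libraries for 5 genes, Acss2, Acly, Acox3, Gcdh and Cdyl, against 45.3% of protein-coding genes and 68.4% of those tested in RNA. Acss1 and Echs1 had a peak in replicate 1 only and Acads in replicate 2 only. The Acads peak was among the weakest of its list, above 8.47% of peaks. Over spans 6 genes had peaks in both libraries, with Acss1 added, against 52.6% of protein-coding genes.

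**Figure D3:**
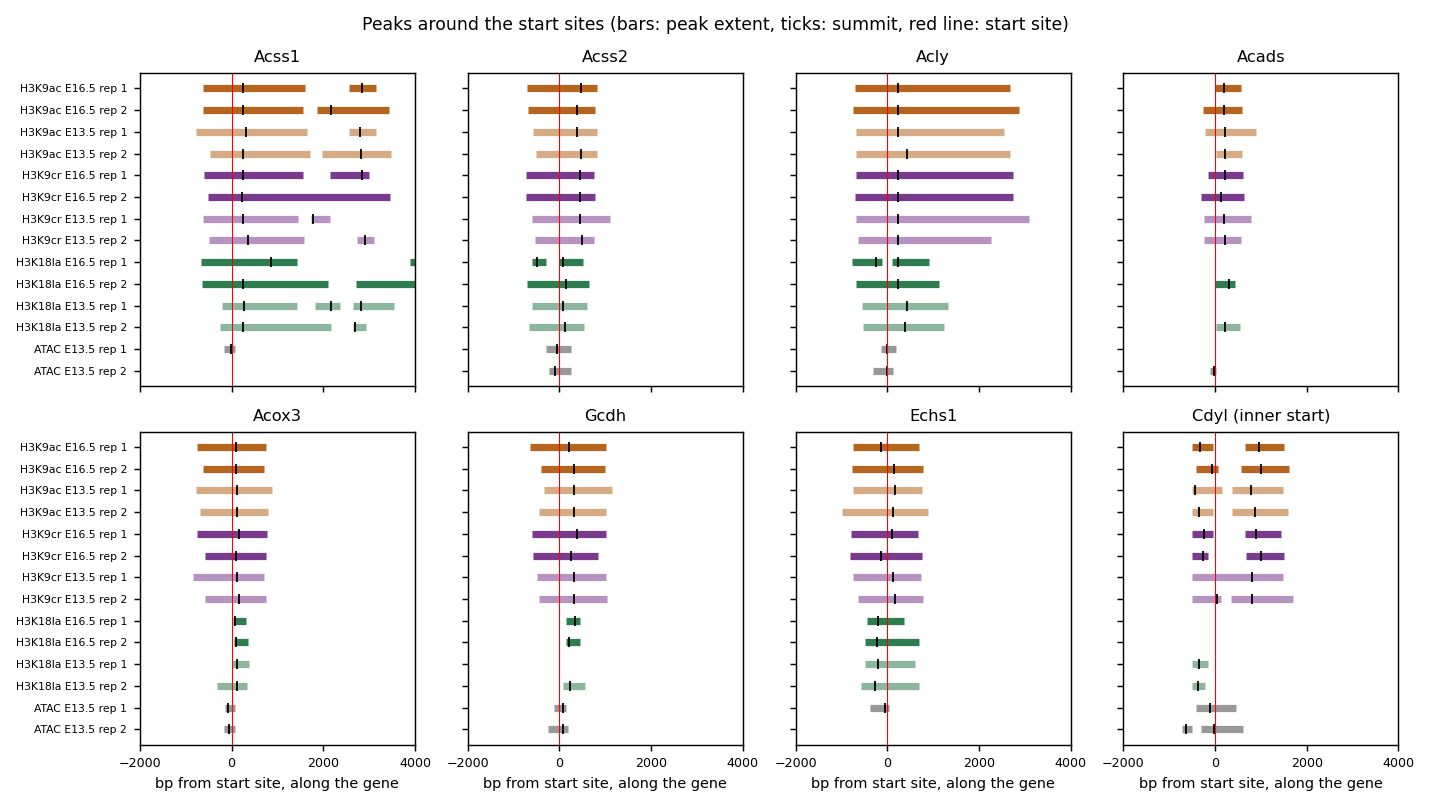
Extent (bars) and summits (ticks) of the peaks of each of 14 libraries around the start site of each of the 8 genes (horizontal axis, bp from the start along the gene), with E16.5 rows above E13.5 rows within a mark. H3K9ac and H3K9cr bars are present in all libraries at every gene, and for Cdyl, drawn at an inner start, the H3K18la rows of E16.5 are empty.

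Along the whole genes, start sites included, Acss1 carried more peaks than any other of the 8 genes. Peaks of the 4 libraries of a mark that overlapped were joined into regions, and the 8 genes held 22 H3K9ac, 16 H3K9cr and 23 H3K18la regions. Acss1 held 11, 8 and 11 of these, start-site regions included. Of the H3K9ac regions 13 were in all 4 libraries (46.2% of all regions of the mark), 1 was in both E16.5 libraries alone (14.5%) and 0 in both E13.5 libraries alone (1.26%). Of the H3K9cr regions 10 were in all 4 (50.8%), 1 was in the E16.5 pair alone (13.9%) and 0 in the E13.5 pair alone (0.584%). Of the H3K18la regions 10 were in all 4 (32.3%), 0 in the E16.5 pair alone (5.02%) and 3 in the E13.5 pair alone (6.87%), and all 3 of these were in Cdyl.

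In Acss1 a site 24112 to 24465 bp into the gene (summits, within chr2:150642684-150645826) had a peak in all 14 libraries, ATAC-seq included. The windows for this and the other inner sites were set after the peaks were seen. For H3K18la its fold enrichment was 15.3 and 17.4 at E16.5, against 18.5 and 18 at E13.5, above 96.2% to 98.1% of the peaks of their lists. This was higher in every list than the peak at the Acss1 start, which stood above 83.4% to 93.1%. For H3K9ac the order was the reverse, with 71.4% to 80.7% for the inner site and 81.0% to 86.1% for the start. The ATAC-seq peaks there had folds of 11.3 and 10.6 and were in both libraries, while the Acss1 start had an ATAC-seq peak in replicate 1 only. The annotated long noncoding RNA Gm52532, whose strand is not given in the table used, spans chr2:150615116-150650549 and so covers this site.

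A second inner site of Acss1 lay 7028 to 7287 bp from the start and had a peak in 11 libraries. For H3K9ac its peaks stood above 54.8% and 63.3% of their lists at E16.5, and above 23.3% and 0.0811% at E13.5. For H3K9cr they stood above 60.8% and 56.2% at E16.5, against 13.8% in replicate 1 of E13.5 and no peak in replicate 2. For H3K18la they stood above 88.9% and 95.3% at E16.5, against 81.5% and 7.72% at E13.5. At E13.5 the H3K9ac peak of replicate 2 was near the bottom of its list, and since the lists differ in length, no change is drawn from these ranks. An H3K9cr region 4176 to 5693 bp into the gene (chr2:150662547-150664064) was called in both E16.5 libraries and in neither E13.5 library. Its folds were 4.14 and 7.17, above 14.6% and 44.4% of the peaks of their lists. The replicate 1 peak ranked 32790 by q-value, beyond the length of either E13.5 list (32567 and 28968 peaks), so no change is drawn from this region either. An H3K9ac region at 4369 to 5519 bp was called in both E16.5 libraries and in replicate 2 of E13.5.

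**Figure D4:**
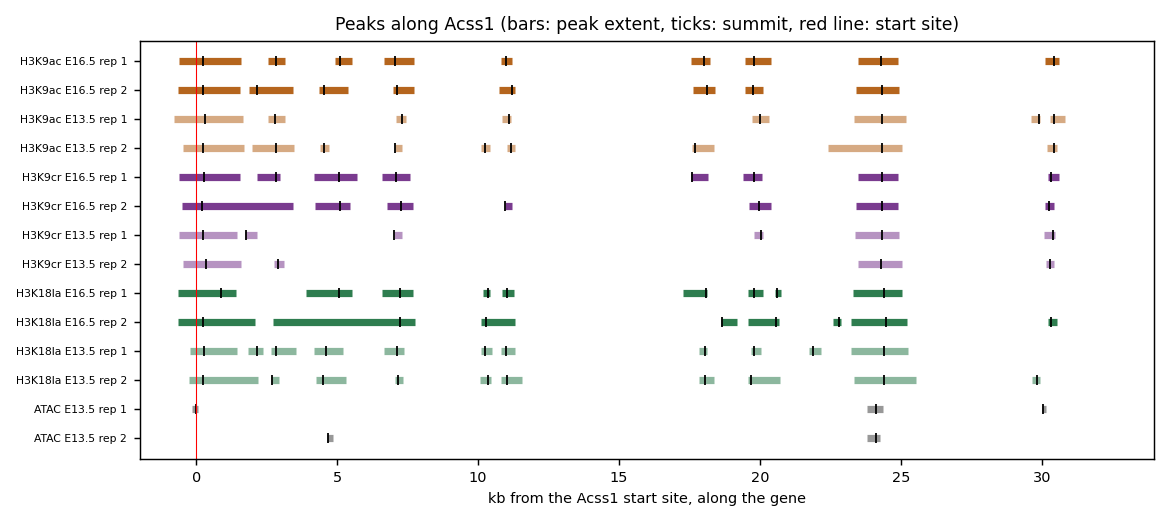
Peaks along Acss1 in each of 14 libraries (horizontal axis, distance from the start along the gene), with E16.5 rows above E13.5 rows within a mark. Every row has a peak about the inner site whose summits lie 24112 to 24465 bp into the gene, and the rows differ more at the site 7028 to 7287 bp in.

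Cdyl differed from the other 7 genes in its starts. RefSeq gives it an outer start at position 35659862 of chromosome 13 and 2 inner starts 81540 and 81600 bp further in. None of the 14 libraries had a peak within 2000 bp of the outer start, and the start-site peaks counted above for Cdyl were all at the inner starts. The 250 bases before the outer start and before the upstream inner start are shown, since the peaks separate them. GC boxes are in capitals as above, and the sequences are chr13:35659612-35659861 and chr13:35741152-35741401, both plus strand, from RefSeq for GRCm38.p6.
Cdyl outer start: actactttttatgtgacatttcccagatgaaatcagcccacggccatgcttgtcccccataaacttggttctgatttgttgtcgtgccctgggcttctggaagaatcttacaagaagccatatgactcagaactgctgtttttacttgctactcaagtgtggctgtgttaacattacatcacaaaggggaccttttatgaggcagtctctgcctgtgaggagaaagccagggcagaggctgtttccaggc
Cdyl inner start: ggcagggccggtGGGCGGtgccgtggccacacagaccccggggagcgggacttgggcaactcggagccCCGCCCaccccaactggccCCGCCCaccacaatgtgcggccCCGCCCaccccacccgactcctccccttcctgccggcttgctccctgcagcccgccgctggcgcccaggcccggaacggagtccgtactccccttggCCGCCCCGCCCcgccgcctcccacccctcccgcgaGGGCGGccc
The outer sequence had 46.8% G and C, 2 CG pairs and no GC box. The inner sequence had 78.4% G and C, 25 CG pairs and 7 GC boxes, of which 2 share a base.

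Around the inner starts the H3K9ac peaks of each library fell into an upstream and a downstream part. The downstream part, with summits 722 to 934 bp from the nearest start, was the stronger in each library, with folds of 12.3 and 12 at E16.5, against 18.5 and 15.7 at E13.5. For H3K9cr it had 9.36 and 11.9 at E16.5, against 22.1 and 21.6 at E13.5, and in replicate 1 of E13.5 both parts were 1 peak. These H3K9cr peaks stood above 50.5% and 58.2% of their lists at E16.5, against 61.6% and 58.5% at E13.5. The median fold of the whole H3K9cr lists was also lower at E16.5, 9.26 and 8.65, against 12.1 and 14.4 at E13.5. The ATAC-seq summits lay within the upstream part, at -103 and -27 bp from the nearest start. The H3K18la peaks lay in the upstream part, in neither library at E16.5 and in both at E13.5, with folds of 6.03 and 3.51 at E13.5, above 70.7% and 18.9% of the peaks of their lists. Under a stricter q-value limit of 1e-05 the peak of replicate 2 dropped out, and Cdyl no longer counted as having lost H3K18la. Without replicate 1 of E16.5, the library with short peaks, it still did. The first base of the upstream part was position 35740899 in 7 of the 14 libraries and within 1 bp of it in 9, across different marks. Both H3K18la peaks at E13.5 began there, and the part of this shared edge in their extent and calling was not tested.

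Within the body of Cdyl, 2 further sites had H3K18la called in neither E16.5 library but in both E13.5 libraries. They lay at 116600 to 117035 bp and at 126562 to 127807 bp from the outer start. At the first, the E13.5 folds were 3.18 and 5.04, above 13.0% and 54.1% of the peaks of their lists. At the second, they were 4.37 and 4.79 for 2 peaks of replicate 1 and 3.74 for replicate 2, above 47.7%, 55.6% and 26.2%. The replicate 1 peak of the first site and the replicate 2 peak of the second had -log10 q-values of 3.69 and 4.51. Both missed the stricter q-value limit given above, and without them neither site was called in both E13.5 libraries. At 139134 to 140457 bp H3K18la was called in all 4 libraries, with folds of 4.35 and 4.42 at E16.5, against 2.73 and 4.21 at E13.5. At 139505 to 140358 bp (chr13:35799367-35800220) H3K9ac was called in both E16.5 libraries only, with folds of 3.41 and 4.26, above 5.42% and 18.7% of the peaks of their lists. These peaks ranked 45955 and 41095 by q-value, beyond the length of either E13.5 list (37319 and 34532 peaks). No change is drawn from this H3K9ac region. Cdyl RNA was lower at E16.5, as given above.

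**Figure D5:**
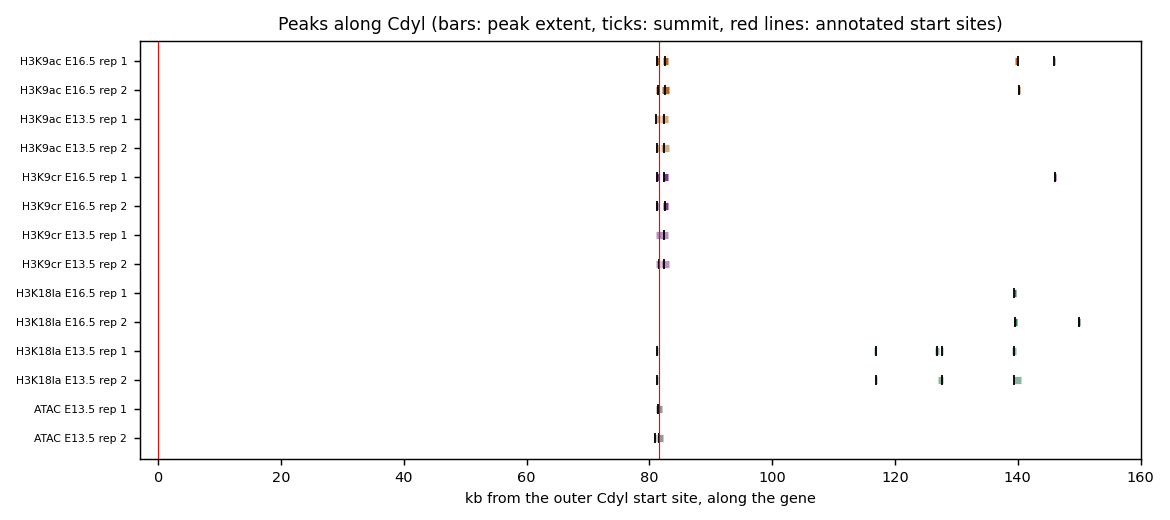
Peaks along Cdyl in each of 14 libraries (horizontal axis, distance from the outer start along the gene), with E16.5 rows above E13.5 rows within a mark. No row has a peak near the outer start, and the H3K18la rows of E16.5 lack the peaks that both E13.5 rows have at the inner start and at 2 sites within the gene.

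The promoter windows of the 8 genes were searched on both strands for 9 motifs. The GC box GGGCGG was found in 9 of the 10 windows of the 8 genes, all but that of the outer Cdyl start, and in 32.7% of the 32851 windows. The windows of the 2 inner Cdyl starts overlap, so the GC boxes they share are counted in both. The share among windows of genes tested in RNA was not computed, and no enrichment is drawn from these counts. The CCAAT box was found in Acss2 and Gcdh, where 33.8% of windows held it. GC boxes overlapped each other by 1 base in Acox3 and at the inner starts of Cdyl, and no CCAAT box overlapped a GC box. None of the windows of the 8 genes held the TATA box TATAAA (12.4% of all windows), the E-box CACGTG (6.02%), the cyclic AMP response element TGACGTCA (1.55%), the NRF1 core CGCATGCG (1.55%), the E2F motifs TTTCCCGC and TTTGGCGC (1.3%), the sterol response element TCACNCCAC (1.05%) or the ERR motif TCAAGGTCA (0.387%). A match describes the letters of the window and not binding.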

How the data were processed

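The RNA table held expected counts per gene that the authors deposited, from Salmon 1.1.0 per the submitters' processing notes. Between 24.4% and 25.3% of a library's values were not whole numbers. The authors' deposited comparison table gave log2 fold changes with p-values (DESeq2 1.26.0, per the submitters' processing notes). Each library's peak list came from alignment with Bowtie2 2.4.1 and peak calling with MACS2 2.2.7.1 (per the submitters' processing notes, with GRCm38 as the build). A peak has, per the file headers, a pileup signal, a -log10 p-value, a -log10 q-value and a fold enrichment ratio. Every list ended below a q-value of 0.01. The control, duplicate handling and strand setting were not stated in the labels, and the inputs were not analysed here.

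After rounding, counts were fitted with edgeR 4.0.16 in R 4.3.3 (quasi-likelihood F test, TMM, filterByExpr, 2 residual degrees of freedom) for E16.5 minus E13.5. The call threshold was 0.05, after Benjamini-Hochberg adjustment across every gene tested. With 2 libraries a group, p-values rest on spread shared across genes. DESeq2 1.42.0 was an alternative. Fits were tested on simulated data. A mark was gained at a gene when each E16.5 library, but no library of E13.5, had a peak overlapping its window by at least 1 bp, and lost in the reverse case. No p-value was computed for peaks, with 2 libraries a stage. Start sites and promoters came from RefSeq (GRCm38.p6), and all 8 genes matched. The 8 genes and all lists were chosen with earlier results of these data known. From each wider list up to 2 genes higher and 2 lower with the largest change were named, with a mean of at least 1 CPM and no overlap between stages. A gene that this rule names is not reported here. The others named belong to small counts or were chosen once their values were known. Protein sequences were not analysed here.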

Additional observations from a re-analysis of the deposited data

How the results depend on the processing

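RNA results were recomputed with RLE and upper-quartile scaling, without the filter on low counts, with a filter at a mean of 1 CPM, with DESeq2, with the replicate block and without each library. Acss1, Acly, Acads and Cdyl stayed called lower in all 10. Acss2 ranged from -0.02, without replicate 1 of E16.5, to 0.18 when each library was left out. With DESeq2 Echs1 was not called (adjusted p = 0.0516). Lower calls in lysine and tryptophan breakdown were 4, but 2 with upper-quartile scaling and 2 with DESeq2. Those of other crotonase-fold genes were 2, but 1 with DESeq2. Among users of cytosolic acetyl-CoA 0 were lower, but 2 without the filter, and 3 were higher, but 5 with upper-quartile scaling, which moved the median of all genes to 0.10. The causes were not tested. Leaving out each library gave 2 to 4 higher in fatty acid oxidation, 2 to 4 lower in lysine and tryptophan breakdown, 1 to 2 lower and 0 to 1 higher among crotonase-fold genes, 0 to 2 lower users, 4 to 6 higher synthetases (7 with all libraries) and 5 to 6 lower among the 8 genes. For peaks, leaving out each library gave 0 to 1 genes gaining H3K18la, over spans and at start sites. Genes losing H3K18la at a start site were 1, but 0 at a q-value under 1e-05.

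Replicate numbers are shared between the stages, and the deviations of same-numbered RNA libraries had a correlation of 0.12 across 16237 genes. With only 2 pairs they share a number and no pairing is known. With the replicate block 5 of the 8 genes were lower and 0 higher, 4851 genes were lower and 4675 higher, and 1 user of cytosolic acetyl-CoA was lower in place of 0.

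Genes of few counts, such as Acss3 and Tdo2, are poorly sized, and a missing H3K18la peak can be a peak just under the caller's threshold.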
